A study of Rattus norvegicus with 18 samples.

Results

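The comparison described here sets rat cortical neuroglial cultures that received the secreted preparation called Glutamate_BPC before glutamate against cultures that received glutamate alone (Glutamate). The libraries were taken by their titles, 3 in each group, so that 6 of the 18 libraries of the series enter the contrast, and libraries with the same replicate number were treated as a pair. Both groups came from cultures of newborn Wistar rat cortex, used on day 10 in vitro, that were exposed to 100 µM glutamate for 1 h, and RNA was taken 4 h after the exposure. The Glutamate_BPC cultures had in addition been given, 1 day earlier, material secreted by glial progenitor cells, which the study derived from human induced pluripotent stem cells. The labels do not say whether this was the protein fraction of 3 to 100 kDa or the total secretome, and the name is used as given. The other 12 libraries, from the Control, Memantine, Glutamate_vesicles and Glutamate_secret groups, served to estimate the spread and are quoted only where they bear on a gene of this comparison.

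Excess glutamate overactivates calcium-permeable receptors on neurons and damages them, a process called excitotoxicity, and the surrounding glia respond to the injured cells. Neuroglial cultures hold neurons, astrocytes, microglia and cells of the oligodendrocyte lineage. In that lineage, progenitors marked by Pdgfra and Cspg4 pass through a premyelinating stage marked by Bcas1, Enpp6 and Gpr17, and then make myelin proteins such as Mbp, Mag and Mog. RNA of a whole culture cannot tell fewer cells of a type from less RNA per cell.

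The 6 libraries held between 10406915 and 13854110 counts. Markers of astrocytes and neurons were present, with Gfap, the astrocyte filament protein, at 2115 to 9940 CPM (counts scaled to a common library size) and Mapt, the neuronal tau protein, at 540.3 to 1098 CPM. Ribosomal RNA (rRNA) took a similar share of both libraries of each pair. It was 17.3%, 8.001% and 20.4% in Glutamate 1, 2 and 3, and 13.9%, 8.15% and 20.1% in Glutamate_BPC 1, 2 and 3. Transcripts of ribosomal protein genes took 13.97%, 2.81% and 8.03% of the Glutamate libraries and 11.9%, 8.40% and 10.6% of the Glutamate_BPC libraries. Glutamate 2 thus stood apart with the lowest share of the 6, and it lay farthest from the other 5 on the first principal component of all 18 libraries, at 122 against -86.8 to 28.5. Its part in the results below was measured by leaving it out.

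No gene was called in the comparison of Glutamate_BPC with Glutamate. Of 14398 genes tested with the quasi-likelihood test of edgeR with the replicate number as a block, 0 (0.0%) passed an adjusted p of 0.05, and the smallest adjusted p was 0.818. Before adjustment, 486 genes (3.38%) had p below 0.05, a smaller share than this threshold gives when no gene differs. Of these, 481 (3.34%) also had a fold change above 1.5, and this looser criterion is used below to count genes, not to call them. It held 215 genes higher in Glutamate_BPC (1.49%) and 266 lower (1.85%). In 437 of the 481 the difference had the same sign in all 3 pairs, which selection by p in the same pairs partly fixes. The likelihood-ratio test of edgeR, the test of the study, called 6 genes with the same block, and DESeq2 called 8. Both called Fxyd5, Mfap4, Hk3, Cpm and Gpr39. The likelihood-ratio test alone called Mrc1, and DESeq2 alone called Gja5, Fgfbp3 and Dusp15. The typical gene differed little, with a median log2 fold change of 0.04 and a median standard error (SE) of 0.44.

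**Figure D1:**
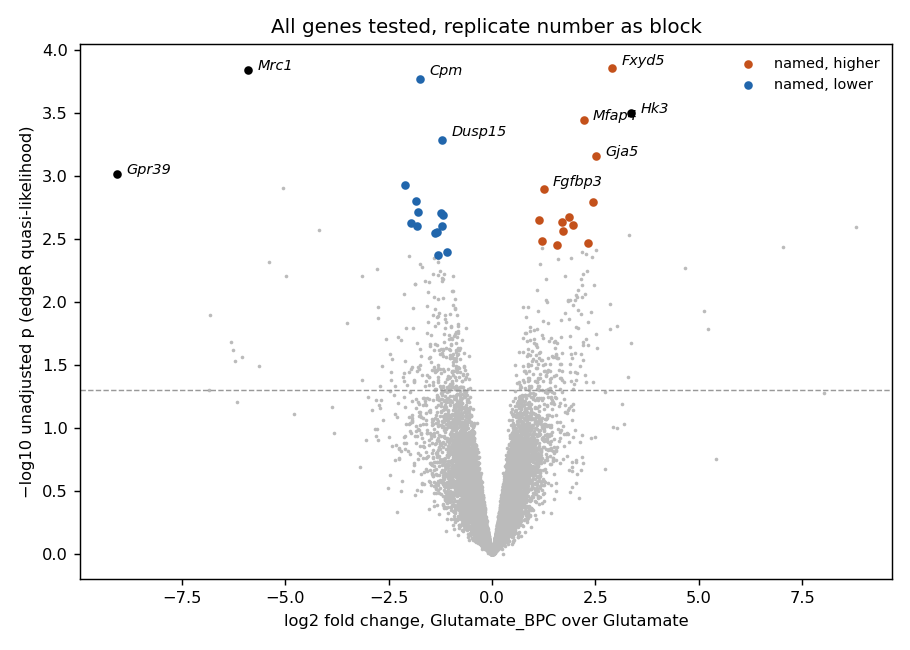
Each point is 1 of 14398 genes, with the log2 fold change of Glutamate_BPC over Glutamate on the horizontal axis and −log10 of the unadjusted p on the vertical axis. Above the dashed line lie the 486 genes with an unadjusted p below 0.05, coloured points are the 27 genes named by rule, and black points are Gpr39, Hk3 and Mrc1, which have few counts in at least 1 group.

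The 3 pairs did not carry a common genome-wide difference. Across genes, the log2 difference between Glutamate_BPC and Glutamate in pair 2 correlated with that in pair 3 (r = 0.51), whereas pair 1 correlated with pair 2 at r = -0.2 and with pair 3 at r = -0.081. These values describe 14398 genes that are not independent, and the pairs share no library. Pair 2, which holds Glutamate 2, had the widest spread, with 31.7% of the genes differing more than 2-fold, against 14.5% in pair 1 and 12.1% in pair 3. A difference of the same sign in all pairs was found for 26.2% of the genes, 12.1% higher and 14.1% lower.

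**Figure D2:**
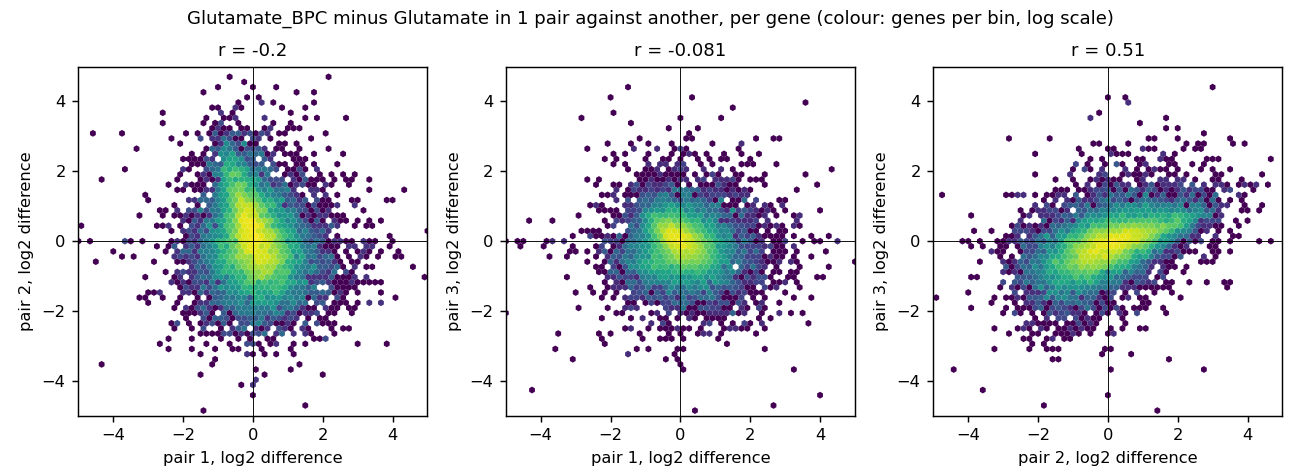
Each panel plots the log2 CPM difference of Glutamate_BPC minus Glutamate in 1 pair against that in another, per gene, with the number of genes per bin in colour on a log scale and axes limited to 5 log2 units either way. Pairs 2 and 3 rise together (r = 0.51), and pair 1 shows no such relation with pair 2 (r = -0.2) or pair 3 (r = -0.081).

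Fxyd5 and Mfap4 led the genes higher in Glutamate_BPC. The rule names genes of smallest p with the same sign in all pairs, and 13 higher and 14 lower genes are described. Since it used this contrast, their values are descriptions. In 11 of the 13 higher genes the ranges of the groups did not overlap, which held for 7.13% of all genes, 2.88% higher and 4.24% lower. Fxyd5, a regulator of the sodium pump also called dysadherin, had 2.07, 1.21 and 4.09 CPM in Glutamate 1, 2 and 3 and 7.52, 20.4 and 29.2 CPM in Glutamate_BPC 1, 2 and 3. The ranges did not overlap, and the log2 fold change was 2.91 (SE 0.59, adjusted p = 0.818 by the quasi-likelihood test, 0.00581 by the likelihood-ratio test and 0.003 by DESeq2). Its Control mean was 1.19 CPM (range 0.286 to 1.67 CPM), below the means of both glutamate groups. Glutamate 2 lay within the Control range. Mfap4, a glycoprotein of the microfibrils around elastic fibres, had 16.8, 8.19 and 25.0 CPM in Glutamate and 77.6, 30.7 and 144.2 CPM in Glutamate_BPC. Each pair showed the difference, and the log2 fold change was 2.22 (SE 0.49, adjusted p = 0.966 by the quasi-likelihood test, 0.032 by the likelihood-ratio test and 0.0248 by DESeq2).

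Fbln5, a fibulin needed for the assembly of elastic fibres, was at 17.4, 30.1 and 18.1 CPM in Glutamate and at 43.9, 66.1 and 31.9 CPM in Glutamate_BPC (log2 fold change 1.12, SE 0.31). Ccn2, the matricellular connective tissue growth factor and a known target of the Hippo pathway, was at 27.0, 12.2 and 4.09 CPM in Glutamate and at 38.7, 113 and 21.6 CPM in Glutamate_BPC (1.87, SE 0.51). Its ranges overlapped, because Glutamate 1 lay above Glutamate_BPC 3, although each pair differed in the same direction. Without pair 2 its log2 fold change was 1.09, and without pair 1 it was 2.91. Serpinf1, which encodes the secreted pigment epithelium-derived factor, had 7.49, 1.59 and 8.85 CPM in Glutamate and 22.9, 13.6 and 23.4 CPM in Glutamate_BPC (1.97, SE 0.55). Fgfbp3, a secreted carrier of fibroblast growth factors, had 5.17, 5.21 and 7.98 CPM in Glutamate and 18.2, 12.5 and 13.2 CPM in Glutamate_BPC (1.26, SE 0.32). Both were clear of overlap. Papss2, which makes the sulfate donor used to build proteoglycans, had 1.29, 6.73 and 5.16 CPM in Glutamate and 10.1, 15.1 and 43.1 CPM in Glutamate_BPC (2.32, SE 0.68), and 2.98 without pair 2.

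Gja5, the gap junction protein connexin 40, had 2.20, 0.381 and 1.65 CPM in Glutamate and 8.06, 10.0 and 3.15 CPM in Glutamate_BPC (log2 fold change 2.51, SE 0.60). The differences within pairs were 1.81, 4.27 and 0.87, and without pair 2 the value was 1.51. RT1-Da, a chain of the class II histocompatibility molecule that presents antigen, had 1.42, 1.59 and 3.50 CPM in Glutamate and 6.25, 14.2 and 11.6 CPM in Glutamate_BPC (2.44, SE 0.64). It belongs to a family of similar genes, and reads can be split among them. The actin-binding Pdlim7 overlapped between the groups, with 98.4 CPM in Glutamate 1 against 92.6 CPM in Glutamate_BPC 2 (1.71, SE 0.48), and without pair 2 its log2 fold change was 1.09 as well, against 2.48 without pair 1. Neuronal genes among them were Pnoc, the precursor of the peptide nociceptin (3.37 ± 2.55 CPM in Glutamate and 8.70 ± 2.31 CPM in Glutamate_BPC, SD, n = 3 each), and Npas1, a transcription factor of inhibitory neurons. The remaining gene was the zinc finger gene Zfp692 (1.22, SE 0.35).

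**Figure D3:**
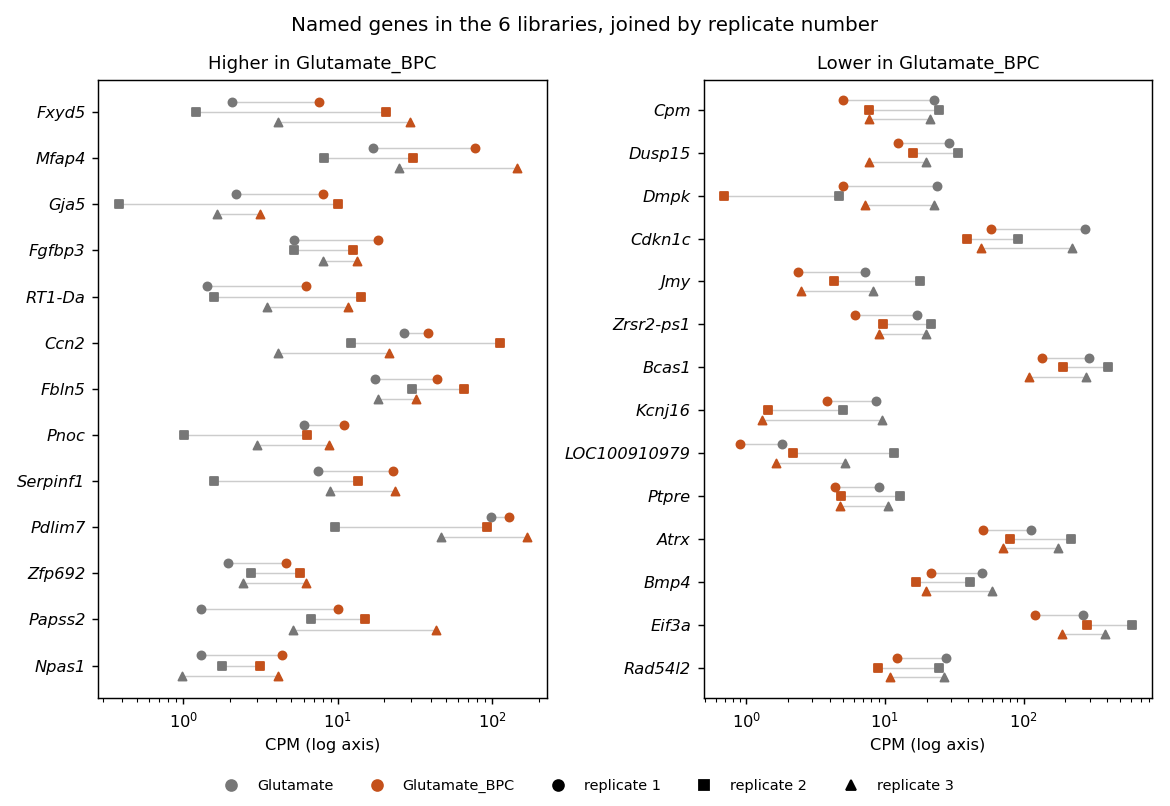
CPM on a log axis of the 13 higher and the 14 lower genes named by rule in each of the 6 libraries, grey for Glutamate and orange for Glutamate_BPC, with the shape giving the replicate number and a line joining each pair. Fxyd5 lies at 1.21 to 4.09 CPM in Glutamate and 7.52 to 29.2 CPM in Glutamate_BPC, and Cpm at 21.0 to 24.7 and 4.98 to 7.72 CPM.

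Cpm led the genes lower in Glutamate_BPC. It encodes carboxypeptidase M, a membrane enzyme that removes basic residues from the ends of peptides. Cpm had 22.7, 24.7 and 21.0 CPM in Glutamate and 4.98, 7.72 and 7.70 CPM in Glutamate_BPC. The lowest Glutamate library was well above the highest Glutamate_BPC library, and the log2 fold change was -1.74 (SE 0.36, adjusted p = 0.818 by the quasi-likelihood test, 0.0155 by the likelihood-ratio test and 0.00824 by DESeq2). The Control mean of 11.9 ± 5.38 CPM (SD, n = 3) lay between the groups. Dusp15, a dual-specificity phosphatase, had 29.2, 33.6 and 19.6 CPM in Glutamate and 12.5, 15.9 and 7.70 CPM in Glutamate_BPC (-1.21, SE 0.28, adjusted p = 0.0153 by DESeq2 and 0.966 by the quasi-likelihood test). In 11 of the 14 lower genes, which include Bcas1 described below, the ranges did not overlap.

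The cell cycle inhibitor Cdkn1c, also called p57, was at 279.6, 91.5 and 221.7 CPM in Glutamate and at 58.5, 39.1 and 49.5 CPM in Glutamate_BPC (log2 fold change -1.84, SE 0.49). Bmp4, a ligand that holds back the maturation of oligodendrocytes, was at 50.5, 41.3 and 59.3 CPM in Glutamate and at 21.6, 16.8 and 19.7 CPM in Glutamate_BPC (-1.38, SE 0.39). Its Control mean was 23.8 CPM. The kinase gene Dmpk had 23.6, 4.63 and 22.8 CPM in Glutamate and 4.98, 0.692 and 7.16 CPM in Glutamate_BPC (-2.09, SE 0.53), with overlap only through the low level of Glutamate 2. Kcnj16, an inward rectifier potassium channel of glia, had 8.65, 5.02 and 9.53 CPM in Glutamate and 3.80, 1.44 and 1.30 CPM in Glutamate_BPC (-1.97, SE 0.55).

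Atrx, a chromatin remodeller, had 114.0, 220.6 and 175.7 CPM in Glutamate and 50.6, 79.2 and 71.5 CPM in Glutamate_BPC (log2 fold change -1.32, SE 0.38). Eif3a, a subunit of a translation initiation factor, had 269, 606 and 384 CPM in Glutamate and 121, 286 and 189.6 CPM in Glutamate_BPC (-1.08, SE 0.32). Each pair of Eif3a differed by about the same amount, but the ranges overlapped because pair 2 was high in both groups. Jmy, an actin nucleator (-1.80, SE 0.49), the helicase gene Rad54l2 (-1.30, SE 0.39), the phosphatase gene Ptpre (-1.20, SE 0.33) and LOC100910979 (-1.81, SE 0.50) were lower too. So was Zrsr2-ps1 (-1.23, SE 0.33), a pseudogene whose reads may be shared with related splicing factor genes.

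A few genes were at or near 0 in a group, where a fitted fold change has no firm meaning. Gpr39, a zinc-sensing receptor, had 21, 25 and 27 counts in Glutamate and 0 counts in all 3 Glutamate_BPC libraries. Against a floor of 3 counts over the group, it was at least 27.1-fold lower in Glutamate_BPC. Hk3, a hexokinase of myeloid cells, had 2, 2 and 4 counts in Glutamate and 14, 52 and 32 counts in Glutamate_BPC. Its log2 fold change was 3.37 (SE 0.74, adjusted p = 0.00235 by the likelihood-ratio test, 0.0248 by DESeq2 and 0.966 by the quasi-likelihood test). Mrc1, the macrophage mannose receptor, had 87 counts over the Glutamate libraries and 1 count over the Glutamate_BPC libraries. The ratio was 96.9, with a 95% counting interval of 16.9 to 3870, and Glutamate 1, like Glutamate_BPC 1 and 3, had 0 CPM. Il11, a cytokine of the gp130 family, had 0 counts in every Glutamate library and 34, 101 and 0 counts in Glutamate_BPC, at least 40.4-fold higher over the group although Glutamate_BPC 3 had none. Floors and intervals cover counting error only.

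The promoters of 4 of these genes are shown because they lead the higher and the lower genes (Fxyd5 and Cpm), because Ccn2 is a known target of TEAD factors, and because Enpp6 has the lowest fold change among the oligodendrocyte lineage genes described next. The sequences are the 250 bases before the annotated start in RefSeq, assembly GRCr8, on the strand of the gene. Capitals mark matches on either strand to GGAATG (bound by TEAD factors), TGANTCA (AP-1), ACAANG (SOX factors) and CAGNTG (an E-box).
Fxyd5, chr1:95404723-95404972, minus strand: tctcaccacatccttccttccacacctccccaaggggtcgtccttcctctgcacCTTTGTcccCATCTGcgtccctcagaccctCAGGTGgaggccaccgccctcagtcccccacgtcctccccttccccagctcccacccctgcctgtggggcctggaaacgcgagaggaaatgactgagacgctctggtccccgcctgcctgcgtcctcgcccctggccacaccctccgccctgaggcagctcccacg
Ccn2, chr1:22624615-22624864, minus strand: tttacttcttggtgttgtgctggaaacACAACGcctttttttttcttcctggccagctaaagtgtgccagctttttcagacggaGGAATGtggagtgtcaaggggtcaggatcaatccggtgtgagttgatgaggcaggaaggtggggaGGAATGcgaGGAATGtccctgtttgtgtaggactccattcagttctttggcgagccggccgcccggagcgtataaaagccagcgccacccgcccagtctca
Cpm, chr7:55111349-55111598, plus strand: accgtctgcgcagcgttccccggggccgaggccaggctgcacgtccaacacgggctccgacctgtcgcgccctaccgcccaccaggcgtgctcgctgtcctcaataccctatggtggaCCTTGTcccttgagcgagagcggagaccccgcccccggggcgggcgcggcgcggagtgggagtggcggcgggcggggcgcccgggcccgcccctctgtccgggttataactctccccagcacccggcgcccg
Enpp6, chr16:52026729-52026978, minus strand: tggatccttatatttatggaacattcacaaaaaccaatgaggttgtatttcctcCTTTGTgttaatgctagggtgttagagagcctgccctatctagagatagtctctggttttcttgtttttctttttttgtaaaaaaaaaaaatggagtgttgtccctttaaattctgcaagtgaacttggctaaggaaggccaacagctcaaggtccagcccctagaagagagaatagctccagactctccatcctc
The Ccn2 window held GGAATG 3 times, at 166, 101 and 92 bases before the start, and 11.8% of 27457 promoters held it at least once. Of the 13 higher genes, 10 had a promoter in the table and 1 of these, Ccn2, held GGAATG. Of the 14 lower genes, 9 had one and 0 held it. ACAANG was found in 36.4% of all promoters and in 6 of the 11 matched oligodendrocyte lineage promoters. It was also in 5 of 10 promoters of the higher genes and 3 of 9 of the lower. CAGNTG was found in 42.9% of all promoters, and in 1 of 11, 4 of 10 and 3 of 9 in the same order. TGANTCA was found in 6.36% of all promoters, and in 1 of 11, 0 of 10 and 1 of 9. These matches describe letters in a window and were not tied to the expression values.

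Among oligodendrocyte lineage genes, Enpp6, Myrf, Ugt8, Bcas1 and Cldn11 were lower in Glutamate_BPC by the looser criterion, and Olig1 was higher. Of 17 lineage genes, 16 passed the filter on low counts, all but Opalin. Of the 16, 0 were called, 5 were lower by the looser criterion (1.85% of all genes were) and 1 was higher (1.49%). The median log2 fold change was -0.86, against 0.04 over all genes, and the pair medians were -0.88, -0.10 and -1.03. Bcas1, a marker of premyelinating cells, had 298.5, 405.6 and 280.7 CPM in Glutamate and 134.8, 192.1 and 109.1 CPM in Glutamate_BPC, with no overlap (log2 fold change -1.19, SE 0.32). Myrf, the transcription factor that switches on myelin genes, had 26.4, 62.4 and 21.1 CPM in Glutamate and 8.60, 15.04 and 7.92 CPM in Glutamate_BPC, again with no overlap (-1.68, SE 0.52). Enpp6, a choline phosphodiesterase of newly forming oligodendrocytes, had 2.33, 7.62 and 3.31 CPM in Glutamate and 0.272, 2.36 and 1.08 CPM in Glutamate_BPC (-1.996, SE 0.60).

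Ugt8, the enzyme that makes the myelin lipid galactosylceramide, had 13.0, 40.6 and 10.99 CPM in Glutamate and 6.70, 12.4 and 4.23 CPM in Glutamate_BPC (log2 fold change -1.32, SE 0.52). Cldn11, a tight junction protein of myelin, was lower in pairs 1 and 3 only, with log2 differences of -1.76, 0.10 and -0.94. Mbp, myelin basic protein, showed the same split, at 170.1, 119.9 and 155.5 CPM in Glutamate and 48.6, 168.7 and 121.9 CPM in Glutamate_BPC (-0.66, SE 0.39, not past the criterion). Gpr17, a receptor of premyelinating cells, differed by 0.65, -2.40 and -2.43 in the 3 pairs.

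Olig1, a transcription factor of the lineage, went the other way, with 293.8, 208.4 and 338.8 CPM in Glutamate and 411.2, 486.3 and 478.1 CPM in Glutamate_BPC, without overlap (log2 fold change 0.75, SE 0.32). Olig2 (0.10, SE 0.32) and Sox10 (0.03, SE 0.42), the factors shared by all stages, had values near 0. The progenitor markers Cspg4 (0.76, SE 0.42) and Pdgfra (0.42, SE 0.54) did not pass the criterion. The sum of the 16 genes was 1603, 2081 and 1621 CPM in Glutamate and 1227, 1683 and 1386 CPM in Glutamate_BPC, so that each pair was lower. For the list as a whole, leaving out Glutamate 2 gave a median of -0.97 with 7 genes lower by the criterion, and leaving out both libraries of pair 1, 2 or 3 gave medians of -0.38, -0.94 and -0.76. Without the replicate block, 1 of the 16 genes was lower by the criterion, at a median of -0.72.

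**Figure D4:**
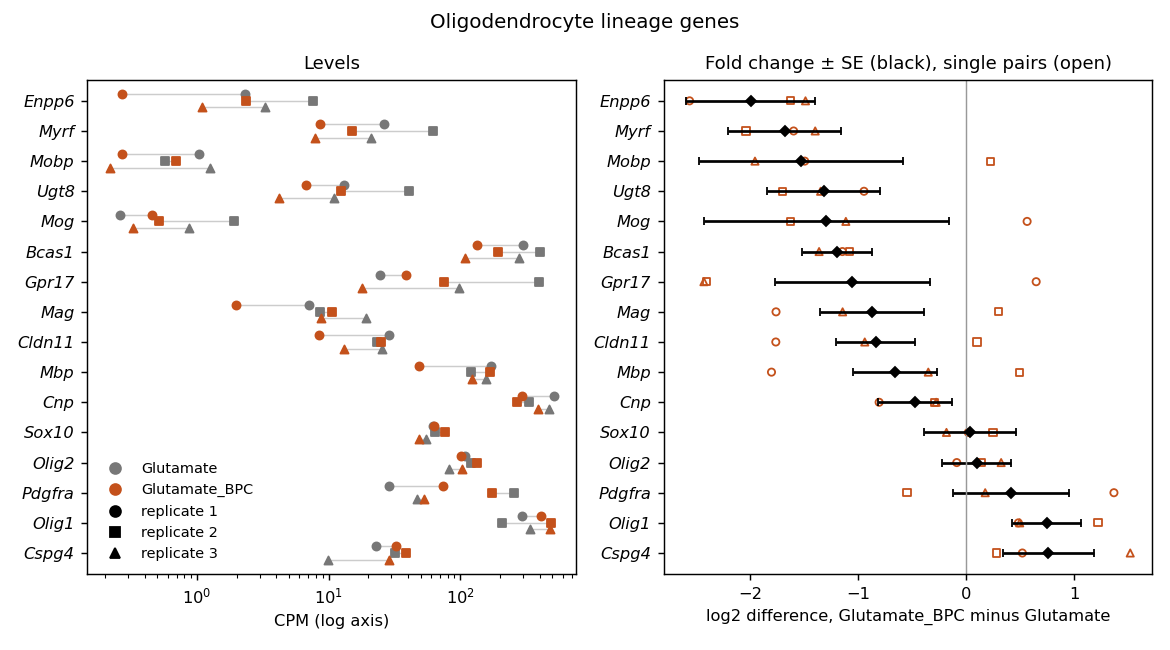
Left, CPM on a log axis of 16 oligodendrocyte lineage genes in the 6 libraries, with lines joining pairs. Right, the fitted log2 fold change with its SE (black) and the log2 difference in each pair (open symbols), from Enpp6 (-1.996) to Cspg4 (0.76).

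Bcas1 and Enpp6, the lineage genes of smallest p, were set beside Control. Bcas1 averaged 188.4 CPM in Control, 328.2 CPM in Glutamate and 145.3 CPM in Glutamate_BPC, and Enpp6 averaged 2.23, 4.42 and 1.24 CPM. For both, the Control range (123.3 to 240.7 and 0.571 to 3.39 CPM) overlapped that of Glutamate_BPC. In the groups given the other preparations, Bcas1 averaged 189.5 CPM in Glutamate_secret and 227.9 CPM in Glutamate_vesicles, and Enpp6 1.70 and 3.67 CPM. The differences of Glutamate_BPC from Glutamate_secret were -0.34 (SE 0.32) for Bcas1 and -0.40 (SE 0.62) for Enpp6. Those from Glutamate_vesicles were -0.63 (SE 0.32) for Bcas1 and -1.87 (SE 0.60) for Enpp6. None of these differences passed the adjusted threshold.

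Of 24 genes of TGF-beta and BMP signalling, 2 were higher by the looser criterion (1.49% of all genes were) and 2 were lower (1.85%), at a median of 0.06. The lower ones were the ligand genes Bmp4 and Tgfb2. Tgfb2 was at 85.9, 91.0 and 104 CPM in Glutamate and 39.9, 36.7 and 38.8 CPM in Glutamate_BPC (log2 fold change -1.31, SE 0.40). The groups were far apart, and the Glutamate_secret and Glutamate_vesicles means, 44.9 and 37.6 CPM, were at the Glutamate_BPC level. The higher ones were Ccn2 and Id1, an inhibitor of differentiation factors that BMP signals induce. Id1 was at 27.8, 11.2 and 26.0 CPM in Glutamate and 39.2, 43.8 and 56.8 CPM in Glutamate_BPC (1.21, SE 0.46), and without pair 2 neither of the higher genes met the criterion.

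Matrix genes were more often higher than lower. Of 31 genes of collagens and other matrix proteins, 4 were higher by the criterion (1.49% of all genes were) and 0 lower. In all 3 pairs 12 were higher (12.1% of all genes were) and 2 lower (14.1%). The median was 0.39, with pair medians of 0.62, -0.10 and 0.22, so that pair 2 did not share it. Their sum was 1417, 1447 and 1683 CPM in Glutamate and 2016, 2019 and 2415 CPM in Glutamate_BPC, without overlap. The sum was thus higher in pair 2 too, unlike the median. It was 1798.4, 2512.5 and 2881.6 CPM in Glutamate_secret and 2277.5, 2430.5 and 2085.5 CPM in Glutamate_vesicles. The list medians of these groups against Glutamate were 0.12 and 0.83. Fbln2, a fibulin, had 304.4, 121.2 and 135.2 CPM in Glutamate and 551.6, 357.6 and 721.4 CPM in Glutamate_BPC (log2 fold change 1.60, SE 0.49). Spp1, the secreted protein osteopontin, had 19.0, 20.4 and 82.0 CPM in Glutamate and 52.1, 286.6 and 152.8 CPM in Glutamate_BPC (2.18, SE 0.65), and without pair 2 its value was 1.26. Postn, periostin, rested on 3 counts in Glutamate and 31 in Glutamate_BPC, a ratio of 9.28 with a counting interval of 2.89 to 47.4.

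None of the collagen genes met the criterion. Col1a1 had a log2 fold change of 0.71 (SE 0.61), Col4a1 of 0.20 (SE 0.41) and Col5a1 of -0.06 (SE 0.60). Among 18 proteoglycans and their partners, Bgn, the small proteoglycan biglycan, was higher at 9.04, 10.9 and 32.6 CPM in Glutamate and 29.9, 48.1 and 115 CPM in Glutamate_BPC (1.89, SE 0.64). Tnr, the tenascin of perineuronal nets, was lower at 18.1, 53.3 and 18.5 CPM in Glutamate and 6.34, 5.88 and 7.48 CPM in Glutamate_BPC (-1.86, SE 0.61). The median of that list was 0.03. Of 24 matrix peptidases and inhibitors, 1 was higher (Plaur, the urokinase receptor) and 2 were lower (Cpm and Mmp14) at a median of 0.06. Over all genes, 1.49% were higher by the criterion and 1.85% lower. Mmp14, a membrane-bound metalloproteinase, had 102, 195 and 196 CPM in Glutamate and 76.2, 69.5 and 102 CPM in Glutamate_BPC (-0.95, SE 0.30).

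Few fibroblast and mural cell markers were measurable. Of 16 such genes, 9 passed the filter on low counts, and Dcn, Lum, Rgs5, Acta2, Kcnj8, Abcc9 and Des did not. Of the 9, 2 were higher by the criterion (Tagln and Postn, against 1.49% of all genes) and 0 lower, with a median of 0.82. None of the 9 met the criterion without pair 2. Tagln, an actin-binding protein of contractile cells, had 393, 50.5 and 395 CPM in Glutamate and 538, 286 and 598 CPM in Glutamate_BPC (log2 fold change 1.10, SE 0.50). Glutamate 2 was the lowest of the 6 libraries, and the value was 0.69 without it and 0.52 without pair 2. The 9 genes summed to 158.5 to 483.3 CPM in Glutamate and to 439.5 to 716.2 CPM in Glutamate_BPC. The list shares Col1a1, Col1a2, Col3a1, Fn1 and Postn with the matrix list above, so that a common direction of the lists is partly built in. The part of these markers in the matrix difference was not tested. Of 15 endothelial markers, 6 passed the filter, 0 met the criterion, and their median was 0.45.

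Of 18 microglial markers, all tested, 3 were higher by the criterion (1.49% of all genes were), 0 lower, and every fitted value was above 0, with a median of 0.74. The pair medians were 0.16, 1.28 and 0.32, and without pair 2 the median was 0.21 with 0 genes past the criterion. Aif1, a calcium-binding protein of microglia also called Iba1, had 14.3, 5.59 and 32.2 CPM in Glutamate and 23.9, 38.0 and 73.4 CPM in Glutamate_BPC (log2 fold change 1.55, SE 0.63, and 0.95 without pair 2). Cd68, a lysosomal protein of phagocytes (1.03, SE 0.47), and Fcgr2b, an inhibitory Fc receptor at under 5 CPM (2.08, SE 0.77), were the others. Not all markers had large fitted values, with the receptor genes Csf1r at 0.03 (SE 0.46) and P2ry12 at 0.09 (SE 0.78). With SEs of this size, a sizeable difference in either direction cannot be told from none. The summed level was 241.4, 237.9 and 590.7 CPM in Glutamate and 232.8, 598.9 and 783.3 CPM in Glutamate_BPC, so that pair 1 showed none of it.

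Of 21 interferon-responsive genes, 4 were lower by the criterion (1.85% of all genes were) and 0 higher. The median was -0.37, and the pair medians were -0.25, -1.72 and -0.39. Rsad2, the antiviral protein viperin, had 0.258, 15.8 and 0.292 CPM in Glutamate and 0, 0.404 and 0 CPM in Glutamate_BPC. Over the groups this was 254 counts against 7, and 249 of the 254 were in Glutamate 2. The others were Ifit1 (53 counts against 1), Mx1 and Mx2. Mx2 was at 7.23, 66.1 and 27.4 CPM in Glutamate and 5.89, 3.80 and 9.44 CPM in Glutamate_BPC, so that Glutamate 3 was also above its pair. Without Glutamate 2, 1 gene met the criterion and the median was -0.17, and Rsad2 was at -4.49 on few counts. Without pair 2, 0 of the 21 genes met the criterion and the median was -0.13. Of 19 cytokine and NF-kB genes, only Il11, higher (1.49% of all genes were), met the criterion, and the median was 0.11. Of 16 genes of the STAT3 pathway 0 met it (median 0.14), among them Timp1, a protease inhibitor of reactive glia, which varied widely in Glutamate (414.3, 24.6 and 115.5 CPM) and less in Glutamate_BPC (351.8, 199.6 and 210.8 CPM, log2 fold change 1.13, SE 0.61).

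No marker of neurons or astrocytes met the criterion. The 15 neuronal markers had a median of -0.34, with pair medians of -0.16, -0.41 and -0.30, and 3 of them, Mapt, Map2 and Elavl3, were lower without overlap (4.24% of all genes were). Mapt had 1098, 818.6 and 835.4 CPM in Glutamate and 745.7, 540.2 and 590.0 CPM in Glutamate_BPC (log2 fold change -0.55, SE 0.44). The summed level of the markers was lower in each pair, at 3185, 2210 and 2408 CPM in Glutamate and 2651, 1877 and 1988 CPM in Glutamate_BPC. Control libraries summed to 4361 to 8890 CPM, so that both groups lay below Control. Snap25, a protein of the release machinery, had 9.95, 29.5 and 14.2 CPM in Glutamate and 21.8, 45.1 and 9.87 CPM in Glutamate_BPC (log2 fold change 0.49, SE 0.51), with a Control mean of 79.6 CPM. The 14 astrocyte markers had a median of -0.17, and Gfap had 4142, 2115 and 7559 CPM in Glutamate and 5056, 5105 and 9940 CPM in Glutamate_BPC (0.62, SE 0.50). Of 15 genes of astrocyte reactivity, 1 was higher by the criterion (1.49% of all genes were), at a list median of 0.34. This was Lcn2, a secreted iron-binding protein (1.86, SE 0.67), but at 0.61 without pair 2.

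In each synaptic list 0 or 1 gene met the criterion, and over all genes 1.49% were higher and 1.85% lower. Counts this small do not set the lists apart. Of 20 release genes, only Cplx2, complexin 2, met it, at 49.2, 41.8 and 43.3 CPM in Glutamate and 11.8, 15.3 and 18.01 CPM in Glutamate_BPC (log2 fold change -1.55, SE 0.56), against a Control mean of 81.8 CPM. The list median was 0.03. Of 21 glutamate receptor genes, only the metabotropic receptor gene Grm3 met the criterion (-1.03, SE 0.41). Grm3 was at 5.04, 9.40 and 8.17 CPM in Glutamate and 2.99, 3.34 and 4.56 CPM in Glutamate_BPC. The receptor list had a median of -0.26, and of 0.05 without pair 2. None of 23 postsynaptic and adhesion genes (median -0.14, and 0.02 without pair 2) or of 21 genes of inhibitory neurons (median 0.25) met the criterion. Of 32 calcium handling genes, 0 met the criterion, at a median of -0.23, and of -0.06 without pair 2. In all 3 pairs 12 were lower (14.1% of all genes were) and 2 higher (12.1%). Ryr2, a calcium release channel, had 50.4, 6.03 and 13.0 CPM in Glutamate and 12.9, 2.71 and 7.16 CPM in Glutamate_BPC (-1.31, SE 0.72).

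Immediate early genes, which glutamate induces through calcium, showed no common direction. By the criterion 1.49% of all genes were higher and 1.85% lower. Of 20 genes, Nr4a1 was higher (log2 fold change 1.30, SE 0.58) in pairs 1 and 2 but not in pair 3, Fosl2 was lower (-1.37, SE 0.64, and -2.17 without pair 1), and the median was 0.08. Fos had 27.6, 43.5 and 80.2 CPM in Glutamate and 38.7, 31.6 and 52.8 CPM in Glutamate_BPC (-0.29, SE 0.37), and its Control mean was 11.6 CPM. Of 20 activity-induced effector genes, Scg2, a secretogranin of dense-core vesicles, was higher (0.89, SE 0.40) and Homer1, a postsynaptic scaffold, was lower (-1.06, SE 0.47), at a median of 0.19.

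In growth factor signalling, Egfr was lower at 3.49, 19.7 and 5.25 CPM in Glutamate and 2.26, 3.23 and 2.17 CPM in Glutamate_BPC (log2 fold change -1.42, SE 0.65, and -0.85 without pair 2), the only one of 20 EGF and ERK feedback genes to meet the criterion (list median -0.18). Fgfbp3 was the only one of 14 FGF genes (median 0.08). Over all genes, 1.49% were higher by the criterion and 1.85% lower. Of 28 WNT and Notch genes, Nrarp, a Notch feedback gene, was higher (0.76, SE 0.34) and Axin2, a WNT feedback gene, was lower (-1.37, SE 0.54). The median of that list was -0.01. None of 20 trophic factor and receptor genes (median 0.06) or of 28 genes of the PI3K-Akt pathway (median -0.21) met the criterion. The PI3K-Akt pair medians were 0.37, -0.73 and -0.41, and without pair 2 the median was 0.03.

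By the criterion 1.49% of all genes were higher and 1.85% lower, so the small counts here do not set stress and death genes apart. In each of these lists 0 or 1 member met the criterion. None of 25 genes of the endoplasmic reticulum and integrated stress responses did (median -0.11). Slc7a11, the cystine-glutamate exchanger of that list, had 113, 85.0 and 94.1 CPM in Glutamate and 29.2, 39.1 and 57.5 CPM in Glutamate_BPC, without overlap (log2 fold change -1.17, SE 0.64). Of 23 antioxidant genes only Me1, the malic enzyme that supplies NADPH, met it, at 114, 146 and 141 CPM in Glutamate and 215, 235 and 221 CPM in Glutamate_BPC (0.76, SE 0.26, list median 0.22). Its ranges did not overlap. Hmox1, heme oxygenase 1, varied from 181 to 697 CPM without a direction (-0.49, SE 0.52). Hspa1a, an inducible heat shock protein at under 3 CPM, was the only one of 18 heat shock genes (1.58, SE 0.62, 0.95 without pair 2, list median -0.00), and Casp1, the inflammasome caspase, the only one of 27 apoptosis genes (2.01, SE 0.88, 1.16 without pair 1 and 3.54 without pair 3, list median -0.07). None of 19 p53 target genes met it (median -0.09).

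Of 30 cell cycle genes, 2 were higher by the criterion (1.49% of all genes were) and 0 lower. In all 3 pairs 11 were higher (12.1% of all genes were) and 0 lower (14.1%). The median was 0.21, with pair medians of 0.52, 0.02 and 0.28, and without pair 2 none met the criterion. Cdc20, which activates the anaphase-promoting complex, had 28.5, 19.5 and 38.1 CPM in Glutamate and 59.5, 39.4 and 59.98 CPM in Glutamate_BPC (log2 fold change 0.92, SE 0.34). Ube2c, the ubiquitin carrier of the same complex, had 17.9, 5.90 and 17.4 CPM in Glutamate and 33.3, 18.2 and 30.5 CPM in Glutamate_BPC (1.12, SE 0.39). Both were free of overlap. Of 26 glycolysis and hypoxia genes, 1 was higher by the criterion (1.49% of all genes were) and 1 lower (1.85%). In all 3 pairs 13 were higher (12.1% of all genes were) and 1 lower (14.1%). The median was 0.44, with pair medians of 0.14, 0.79 and 0.22. Without pair 2 the median was 0.20, and none met the criterion. Eno1, enolase 1, had 839, 604 and 927 CPM in Glutamate and 1160, 1223 and 1402 CPM in Glutamate_BPC (0.69, SE 0.35, not past the criterion). Slc16a3, a lactate exporter, was higher (2.00, SE 0.68), although not in pair 1 (-0.21), and its value without pair 2 was 1.03. Hk2, the inducible hexokinase, was lower, at 40.4, 32.5 and 25.3 CPM in Glutamate and 15.5, 17.4 and 20.3 CPM in Glutamate_BPC (-0.83, SE 0.33). None of 25 cholesterol genes met it (median 0.04).

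Ribosomal protein and respiratory chain genes differed in opposite directions between pairs. Of 80 ribosomal protein genes, 0 met the criterion, and although the median was 0.64 the pair medians were -0.55, 1.92 and 0.45. Without pair 2 the median was -0.03. The 88 nuclear genes of the respiratory chain gave 0.57, with pair medians of -0.55, 1.79 and 0.41. Of them 1 was higher by the criterion (1.49% of all genes were), Cox4i2 (1.91, SE 0.78). Its pair differences were 0.17, 3.92 and 1.56, and without pair 2 its value was 0.80, no longer past the criterion. The 13 mitochondrially encoded messenger RNAs had a median of 0.20, with pair medians of 0.61, -0.50 and 0.10.

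**Figure D5:**
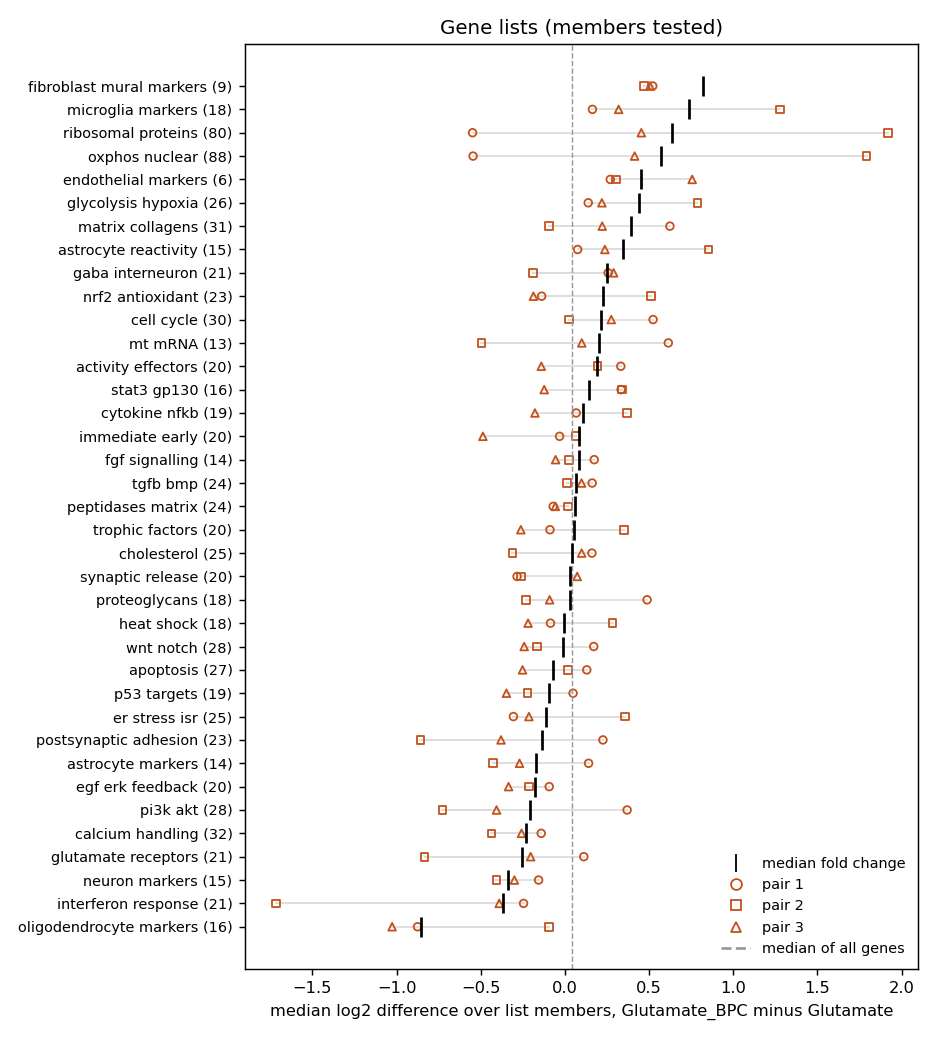
Median log2 difference of Glutamate_BPC minus Glutamate over the tested members of each gene list (number in brackets), as fitted (black bar) and within each pair (open symbols). Oligodendrocyte genes have the lowest median (-0.86) with all 3 pairs below 0, and ribosomal protein genes span -0.55 to 1.92 between pairs.

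The differences were set beside those of the other preparations, which were compared with the same 3 Glutamate libraries, so that the values are not independent. No gene was called between Glutamate_BPC and Glutamate_secret (0 of 14398, smallest adjusted p = 1.00, 177 genes or 1.23% at an unadjusted p below 0.05) or between Glutamate_BPC and Glutamate_vesicles (0, smallest adjusted p = 0.94, 296 genes or 2.06%) by the quasi-likelihood test. DESeq2 called 1 gene in the former and 0 in the latter. Cpm differed from Glutamate by -1.21 (SE 0.35) in Glutamate_secret, by -1.21 (SE 0.35) in Glutamate_vesicles and by -1.74 (SE 0.36) in Glutamate_BPC. Mfap4 differed by 2.19 (SE 0.49), 1.56 (SE 0.49) and 2.22 (SE 0.49) in the same order, and Fxyd5 by 1.91 (SE 0.58), 1.13 (SE 0.57) and 2.91 (SE 0.59).

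The direct difference of Fxyd5 was 1.00 (SE 0.53) against Glutamate_secret and 1.78 (SE 0.55) against Glutamate_vesicles and neither passed the adjusted threshold. Dmpk was the gene among the 27 named by rule with the smallest unadjusted p against Glutamate_secret, at a log2 difference of -2.15 (SE 0.54). It averaged 15.3 CPM in Glutamate_secret, 9.60 CPM in Glutamate_vesicles and 4.28 CPM in Glutamate_BPC, and 17.0 CPM in Glutamate. Pnoc averaged 3.34, 10.5 and 8.70 CPM in the 3 preparations in that order.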

How the data were processed

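RNA was sequenced in 18 libraries. According to the study's methods and the labels, the authors trimmed the reads, quantified them with Salmon (no version given) against rat transcripts with the genome rn6 as decoy, and summed transcripts to genes with tximport. STAR is named too, and the sources disagree about the sequencing platform. The deposited values are expected counts, unscaled estimates per gene in 31463 rows. They were rounded, and the tests planned for counts were run on them. Whether counting used strand is not stated, so overlapping genes can share reads.

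The function filterByExpr, at a minimum count of 10 and a total of 15, kept 14398 genes, and TMM (trimmed mean of M values) scaling was applied. The two-sided quasi-likelihood F test of edgeR 4.0.16 in R 4.3.3 used all 18 libraries, with group and replicate number as terms and 10 residual degrees of freedom. Calls needed a Benjamini-Hochberg adjusted p below 0.05. The looser criterion was p below 0.05 before adjustment and more than 1.5-fold. CPM used TMM-scaled sizes, and log2 CPM a prior count of 2. The fits were tested on simulated data.

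The replicate number is part of how the comparison is defined and was kept as a block. Deviations from group means correlated at 0.453, 0.751 and 0.484 between same-numbered libraries of the compared groups, and at -0.674 to 0.393 between others. The labels do not say whether replicates were separate cultures, so p-values measure the spread between these libraries, which may be technical. The paper reports repeats on cultures of unrelated cells, and it removed day as a batch before clustering cultures without glutamate. It ties neither to these replicate numbers. Alternatives were no block, the likelihood-ratio test of edgeR, DESeq2 1.42.0, RLE size factors, no filter, only the 6 libraries, rRNA rows removed, rRNA or ribosomal protein share as covariate (the latter added after seeing the data) and leaving out libraries.

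The comparison, 34 gene lists and 3 groups by symbol pattern were chosen with earlier results of these data known. The rule named the 14 higher and the 14 lower genes of smallest p that carry a symbol, average at least 1 in log2 CPM and have the same sign in all pairs, 2 genes of smallest p per list, and Fos, Timp1, Hmox1, Snap25 and Gfap. Some genes of the rule and the lists are not reported here and were left out of the counts and medians of the lists and the named genes, without replacement. All others in the text were picked with their values in view.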

Additional observations from a re-analysis of the deposited data

How the results depend on the processing

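The replicate block and the libraries entered decided how many genes met the looser criterion, which was 481 with the block. Without the replicate block it was 153, with only the 6 libraries 744 with the block and 319 with no replicate block, with the rRNA share as covariate 807 (32.6% of them higher, against 44.7%), and with the ribosomal protein share as covariate 314. Leaving out 1 library or both libraries of a number gave 129 to 969. It was 764, 222 and 274 without Glutamate 1, 2 and 3, 805, 198 and 447 without Glutamate_BPC 1, 2 and 3, and 969, 129 and 241 without pair 1, 2 and 3. The cause was not tested. Genes called at the adjusted threshold were 6 by the likelihood-ratio test, 8 by DESeq2 and 1 with the rRNA share as covariate (Rsad2), and 0 in the other alternatives. Against Glutamate_secret, DESeq2 called 1. Of 1848 values of 98 named genes under alternatives, 1831 kept their direction and side of the adjusted threshold, 15 passed it only there, and 2 changed sign, Fos without Glutamate 3 (0.076, with -0.65 to 0.076 over the left-out libraries) and Hmox1 without Glutamate 1 (0.14, with -0.96 to 0.14). Since no gene was called in the main fit, keeping the side of the threshold meant staying uncalled. The leading higher and lower genes were picked for the same sign in all pairs, which largely fixes their direction. Of 60 named genes that met the looser criterion, 48, 32 and 50 still met it without pair 1, 2 and 3. With 3 libraries a group, a gene of median SE is resolved only at large differences, and genes under about 1 CPM rest on few counts.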
